A study of Sorghum bicolor with 24 samples.

Results

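The outermost cell layer of the sorghum stem was compared with living cells of its vascular bundles across the whole transcriptome. Epidermis and vascular parenchyma had 4 laser capture libraries each, which made 8 of the 24 libraries of the series, and 19502 of the 34117 genes listed passed the filter on low counts and were tested. The libraries were taken by their labels, as the columns named for these cell types. Both groups came from 1 genotype, the sorghum cultivar Wray, with no treatment. They were cut from the youngest internode that had finished elongating, at phytomer 8, of vegetative plants at 74 days. The plants were kept in a greenhouse at a day length of 14 h, and the labels give 4 plants as the source of the 4 replicates. Each library is thus 1 captured cell type of 1 internode at 1 stage. The sample labels call the second group vascular parenchyma, whereas the capture protocol in the same labels names xylem parenchyma, so which living cells of the bundle it holds is not settled by the labels.

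The stem epidermis of grasses builds and secretes the cuticle, a layer of cutin and wax that limits water loss. It also carries the stomata and the silica-bearing cells of the stem surface. Parenchyma of the vascular bundle stays alive beside the dead water-conducting vessels and moves solutes between the xylem, the phloem and the storage tissue around the bundle. In sweet sorghum, to which Wray belongs, that storage tissue accumulates sucrose in the pith. These roles are background. The count table gives Sobic identifiers alone, and the gene table used here matched none of them. Neither label could therefore be checked against marker genes, and genes are given without a function. Only the pair with the largest change in each direction is printed by identifier.

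The depth of the libraries and the number of genes they held differed within epidermis. Epidermis replicates 1 and 2 held 9706378 and 10516417 counts with 10439 and 10911 genes above 1 CPM (counts scaled to a common library total). Replicates 3 and 4 held 38880291 and 33400447 counts with 16108 and 16327 genes. The 4 vascular parenchyma libraries ran from 12997022 to 26835924 counts and from 13378 to 16395 genes. Of the genes that entered the test, 39.8% and 39.1% had no count in epidermis replicates 1 and 2, against 12.1% and 11.6% in replicates 3 and 4 and 11.5% to 21.8% in vascular parenchyma. Within the pair, epidermis replicates 1 and 2 thus stood apart. Counts of calls, summaries of the called genes and the fitted values of the printed genes are given below also without them. Outside the pair, phloem replicate 3 held 27471101 counts but 11021 genes above 1 CPM, and 36% of the tested genes had no count in it. Phloem values below include that library. A gene with no count in a library can still be present at up to 3 counts, and averaged over the group this floor was 0.19 CPM in epidermis and 0.167 CPM in vascular parenchyma. Intervals and floors cover counting error only.

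Epidermis and vascular parenchyma differed at 1980 genes, 10.2% of the 19502 tested, by the quasi-likelihood F test of edgeR, adjusted by Benjamini-Hochberg. A called gene had an adjusted p under 0.05 and a log2 difference of 1 or more in either direction. Of the called genes, 904 were higher in epidermis (4.64% of those tested) and 1076 were higher in vascular parenchyma (5.52%). Without epidermis replicates 1 and 2 together, 1326 genes were called, 672 higher in epidermis and 654 higher in vascular parenchyma. The larger side therefore depended on those libraries. It also turned under limma voom with sample quality weights, which gave 1912 genes higher in epidermis and 1798 higher in vascular parenchyma. In captured tissue, fewer cells of a type and less RNA per cell cannot be told apart.

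Genes higher in vascular parenchyma differed by larger fitted folds than genes higher in epidermis. Of the 904 epidermis genes, 217 (24%) differed by a log2 fold change of 1 to 2 and 231 (25.6%) by 10 or more. Of the 1076 vascular parenchyma genes, 110 (10.2%) lay in the first range and 316 (29.4%) in the second. The median size of the log2 fold change was 4.58 for the epidermis genes and 7.17 for the vascular parenchyma genes, while the median over all genes tested, epidermis minus vascular parenchyma, was -0.12. Many of the largest values rested on genes without any count on the lower side, whose fitted fold depends on the prior count. There were 151 such genes (16.7%) among those higher in epidermis and 299 (27.8%) among those higher in vascular parenchyma. With these genes set to the lower bound that the floor allows, the medians were 4.48 and 5.76. That bound had a median of at least 106-fold for the 151 genes and of at least 87.4-fold for the 299. The fitted medians without epidermis replicates 1 and 2 were 4.01 and 5.69, and 100 of 672 and 135 of 654 genes had no count on the lower side.

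**Figure D1:**
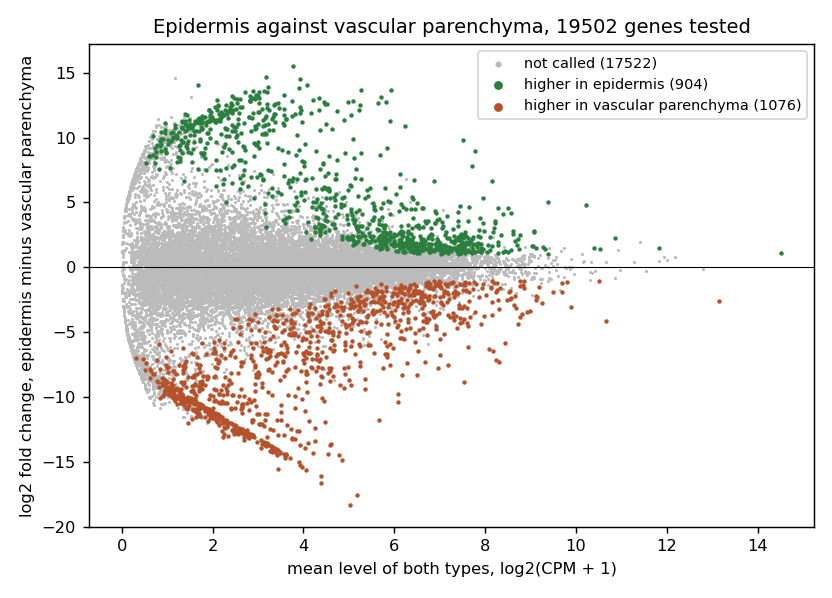
Log2 fold change of each of the 19502 genes tested, epidermis minus vascular parenchyma, against its mean level in the 8 libraries as log2(CPM + 1). Green points are the 904 genes called higher in epidermis, brown points the 1076 called higher in vascular parenchyma, and grey points were not called; the dense edges at the left are genes with no count in one of the types.

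The groups were separated library by library for most of the called genes, which follows in large part from calling them on the same libraries. All 4 epidermis libraries lay above all 4 vascular parenchyma libraries at 769 of the 904 epidermis genes, and at 8.25% of all genes tested. In the opposite direction, all 4 vascular parenchyma libraries lay above the epidermis libraries at 984 of the 1076 genes, and at 11.8% of all genes tested. With epidermis replicates 3 and 4 alone set against the 4 vascular parenchyma libraries, 667 of the 672 and 652 of the 654 genes were separated, against 20.8% and 14.8% of all genes tested in that fit. Calls were more frequent among abundant genes. Of 1889 genes with a mean of 100 to 1000 CPM over the 8 libraries, 711 (37.6%) were called, 380 higher in epidermis and 331 higher in vascular parenchyma. Above 1000 CPM, 42 of 68 genes (61.8%) were called, 20 and 22 in the respective directions. Between 1 and 10 CPM the share was 6.23% of 5842 genes, and 246 of the 364 called there were higher in vascular parenchyma. These shares without epidermis replicates 1 and 2 were 31% at 100 to 1000 CPM, 56.9% above and 1.7% at 1 to 10 CPM.

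The most abundant called genes had counts on both sides. The 10 with the highest level in epidermis had group means of 3780 to 37500 CPM there and 0.363 to 16500 CPM in vascular parenchyma. Their log2 fold changes ran from 1.13 to 13.1, and together they took 4.53% to 11.3% of the counts of an epidermis library. Only 9 of these 10 had epidermis libraries that all lay above those of vascular parenchyma. The 10 most abundant genes on the vascular side had means of 2860 to 24800 CPM in vascular parenchyma and 14.5 to 4280 CPM in epidermis. They took 6.85% to 10.1% of the counts of a vascular parenchyma library, and all 10 were separated library by library. None of these 20 genes was without counts on its lower side. Without epidermis replicates 1 and 2, the log2 fold changes of the 10 most abundant ran from 1.7 to 14 toward epidermis and from -11.2 to -2.25 toward vascular parenchyma.

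Sobic.002G093600 had the largest log2 fold change toward epidermis among separated genes that averaged 10 CPM or more on the higher side. Its epidermis level was 627, 13.3, 89.7 and 50.8 CPM in replicates 1 to 4, a mean of 195 ± 290 CPM (SD, n = 4). It had no count in any vascular parenchyma library, nor in pith parenchyma or phloem, and 1 count in xylem sclerenchyma replicate 4. All 4 epidermis libraries stood clear of the other captured libraries, although they differed widely among themselves. In whole stem the level was 0.988, 0.244, 0.356 and 10.8 CPM. Against the vascular parenchyma floor the epidermis mean was at least 1170-fold higher, with a fitted log2 fold change of 14.69 (SE 1.9, adjusted p = 0.00067 by edgeR). Without epidermis replicate 1, which held the highest value, the bound was at least 306-fold. The fitted log2 fold change was 13.4 without epidermis replicates 1 and 2 (adjusted p = 0.0091 by edgeR). The call was lost within replicates 1 and 2 (adjusted p = 0.0704) and within replicates 3 and 4 (adjusted p = 0.137), with 2 libraries per type.

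Sobic.002G341700 followed in the same direction. Its epidermis level was 4390, 896, 132 and 3.71 CPM in replicates 1 to 4, a mean of 1360 ± 2060 CPM (SD, n = 4). Vascular parenchyma held 4 counts in all, every one of them in replicate 4, at 0.149 CPM. The lowest epidermis library was above every vascular parenchyma library, which the rule for printed genes required. Within epidermis, replicates 1 and 2 were highest and replicate 4 far lower. Outside the pair, phloem had no count, pith parenchyma had 1, and 26 counts fell in xylem sclerenchyma replicate 4. Whole stem reached 1.17, 6.84, 29.1 and 57.3 CPM. The pooled ratio of epidermis to vascular parenchyma was 12100, with a 95% exact binomial counting interval of 4710 to 44300, and dividing the 2 group means gave 36400. The fitted log2 fold change was 14.5 (SE 2.42, adjusted p = 0.00188 by edgeR). Single libraries carried much of the size, since the pooled ratio was 3450 without epidermis replicate 1, 19000 without replicate 3 and 18900 without replicate 4. Without vascular parenchyma replicate 4 the lower side had no count and the epidermis mean was at least 7290-fold higher. The ratio of the group means was 9220 without epidermis replicate 1. Without epidermis replicates 1 and 2 the fitted log2 fold change was 10.5 (adjusted p = 0.0281 by edgeR). Within replicates 3 and 4 it was 9.66 and not called (adjusted p = 0.337), and a replicate block in a fit of the 8 libraries also ended the call (13.2, adjusted p = 0.0672).

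On the vascular side, Sobic.001G377300 had the largest log2 fold change. Its vascular parenchyma level was 5990, 387, 248 and 2260 CPM in replicates 1 to 4, a mean of 2220 ± 2670 CPM (SD, n = 4), and no epidermis library held a count. The vascular parenchyma mean was at least 11700-fold higher than the epidermis floor. Without vascular parenchyma replicate 1 that bound was at least 5080-fold. The fitted log2 fold change, epidermis minus vascular parenchyma, was -18.32 (SE 3.26, adjusted p = 0.00279 by edgeR), and limma voom with quality weights did not call the gene (adjusted p = 0.356). Nor was it called within replicates 1 and 2 (adjusted p = 0.0569) or within replicates 3 and 4 (adjusted p = 0.082), while without epidermis replicates 1 and 2 it was at -18.4 (adjusted p = 0.0214 by edgeR). Replicates 1 and 4 were the high libraries in xylem sclerenchyma too, at 396, 2.53, 9.23 and 95.8 CPM. They were also the 2 pith parenchyma libraries with counts, at 5.06 and 6.36 CPM. Phloem held 198, 100, 3.49 and 81.8 CPM and whole stem 140, 40.2, 90.5 and 16.6 CPM.

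Sobic.002G322900 was the steadier of the pair. Its vascular parenchyma level was 1060, 1160, 1730 and 1320 CPM in replicates 1 to 4, a mean of 1320 ± 296 CPM (SD, n = 4), and again no epidermis library held a count. The mean was at least 6940-fold higher than the epidermis floor, with a fitted log2 fold change of -17.55 (SE 1.91, adjusted p = 6.28e-05 by edgeR). It was -17.6 without epidermis replicates 1 and 2 (adjusted p = 0.000735 by edgeR). Phloem, at 278 ± 124 CPM, and xylem sclerenchyma, at 336 ± 98.2 CPM (SD, n = 4 each), lay below vascular parenchyma in every library and overlapped each other. Pith parenchyma had 35 counts, all in replicate 1, and whole stem 127 ± 43.6 CPM (SD, n = 4). Pith parenchyma was lower than phloem (log2 fold change -8.54, adjusted p = 0.00162 by edgeR) and lower than xylem sclerenchyma (log2 fold change -8.9, adjusted p = 0.00203 by edgeR).

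**Figure D2:**
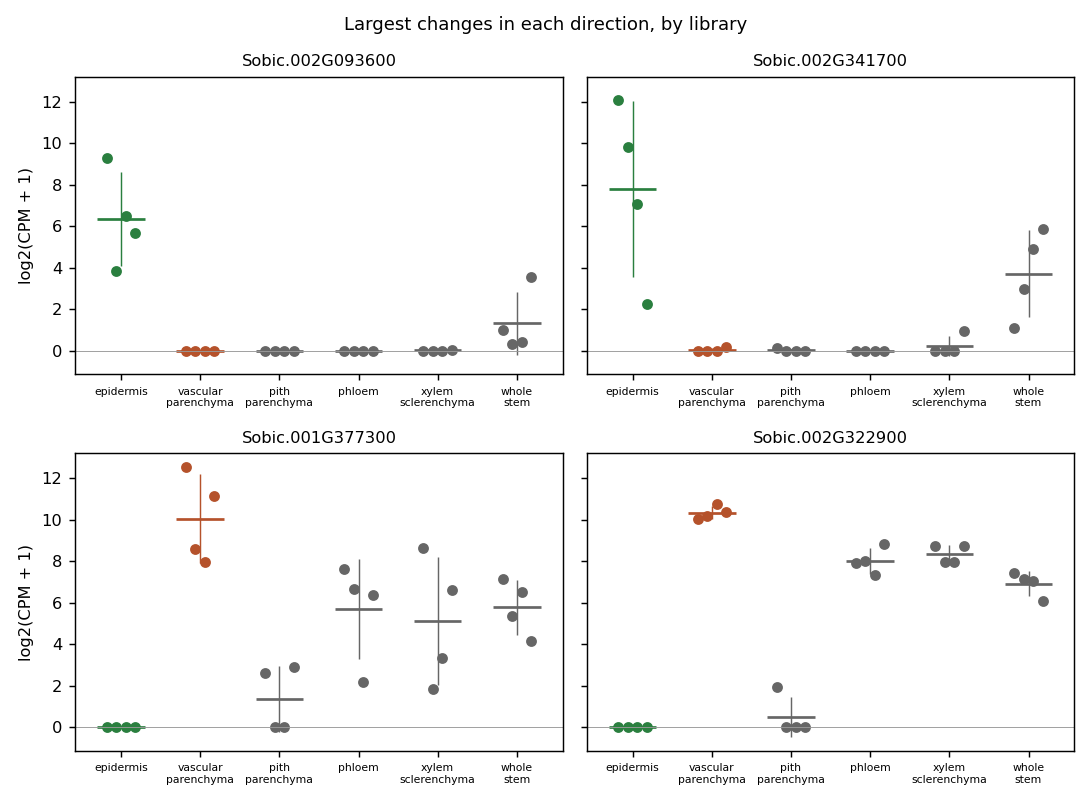
Level of the 4 printed genes in each of the 24 libraries, as log2(CPM + 1), by group; points from left to right are replicates 1 to 4, horizontal lines are means and vertical lines ± 1 SD on this scale. Both upper genes are high in epidermis and near 0 in the other captured types, while both lower genes are without counts in epidermis and present in the 3 vascular types and whole stem.

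The next 13 separated genes in each direction followed by size of change. Those toward epidermis had log2 fold changes of 13.2 to 14 and epidermis means of 67.5 to 3370 CPM, and 8 of the 13 had no count in vascular parenchyma. Those toward vascular parenchyma ran from -16.6 to -14.5 with vascular parenchyma means of 154 to 834 CPM, and 12 of the 13 had no count in epidermis. The highest adjusted p was 0.0247 among the former and 0.0179 among the latter, by edgeR.

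Where else in the stem the called genes were active was read from libraries outside the pair. Genes higher in epidermis took 24.1% to 34.2% of the counts of an epidermis library and 4.17% to 6.56% of those of a vascular parenchyma library, values that follow from how the genes were called. In pith parenchyma, the thin-walled storage tissue, they took 14.8% to 20%. They took 11.3% to 15.2% in whole stem, 7.38% to 10.2% in xylem sclerenchyma and 5.06% to 6.79% in phloem. Pith parenchyma lay above every library of phloem and xylem sclerenchyma, overlapped whole stem, and stayed below every epidermis library. Phloem overlapped vascular parenchyma.

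The genes higher in vascular parenchyma gave the opposite order. They took 26.7% to 32.9% of the counts in vascular parenchyma and 2.38% to 3.55% in epidermis, again by construction. Phloem, the sugar-conducting tissue, held 16.1% to 20.9% and xylem sclerenchyma, the thick-walled fibres of the bundle, 12.2% to 19.9%, and these overlapped. Whole stem held 8.05% to 11% and pith parenchyma 5.59% to 6.61%. Each pith parenchyma library lay above every epidermis library and below every phloem, xylem sclerenchyma and whole stem library. With the calls made without epidermis replicates 1 and 2, pith parenchyma held 12% to 13.1% of its counts in the epidermis genes, against 3.85% to 5.24% in phloem and 6.16% to 10.3% in xylem sclerenchyma. For the vascular parenchyma genes the values were 4.07% to 4.72% in pith parenchyma, 14.1% to 19.1% in phloem and 10.2% to 16.3% in xylem sclerenchyma.

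**Figure D3:**
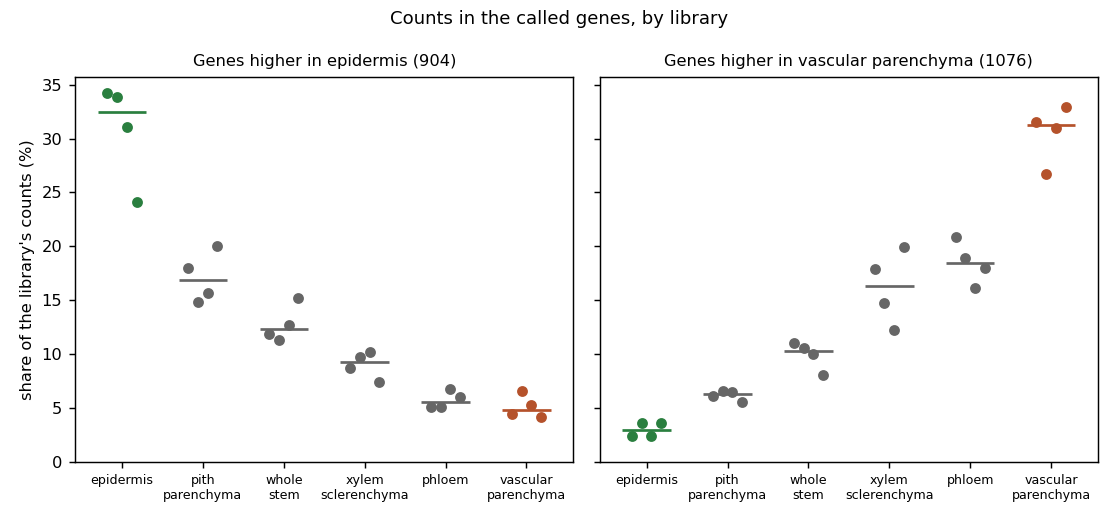
Percentage of each library's counts that fell in the 904 genes called higher in epidermis (left) and the 1076 called higher in vascular parenchyma (right); each point is a library and lines are medians of 4. Pith parenchyma is next to epidermis in both panels among the captured types, at 14.8% to 20% on the left and 5.59% to 6.61% on the right.

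Gene by gene, median levels followed the same order among the captured types. The epidermis genes had a median group mean of 143 CPM in epidermis, 57 in pith parenchyma, 50.4 in whole stem, 18.6 in xylem sclerenchyma, 13 in phloem and 7.95 in vascular parenchyma. On the log2(CPM + 1) scale, pith parenchyma was nearer to epidermis than to vascular parenchyma at 56% of them, compared with 53.6% of all genes tested. Phloem was nearer to epidermis at 11.4% (36% of all genes) and xylem sclerenchyma at 24.2% (39%). Pith parenchyma exceeded both types at 213 of the 904 genes (23.6%), where the share over all genes tested was 39.7%. The vascular parenchyma genes had a median group mean of 90.2 CPM in vascular parenchyma, 52 in phloem, 41.8 in xylem sclerenchyma, 5.88 in pith parenchyma and 0.748 in epidermis. Pith parenchyma was nearer to epidermis at 77% of these, compared with 53.6% of all genes tested. Phloem was nearer to epidermis at 32.4%, close to its 36% of all genes, and xylem sclerenchyma at 23.6% (39%). Phloem exceeded both types at 254 of the 1076 genes (23.6%) and xylem sclerenchyma at 126 (11.7%), where the shares over all genes tested were 34.4% and 31.7%. Lower shares than over all genes follow in part from the calling, which picked genes far apart in the pair. Without epidermis replicates 1 and 2, the epidermis genes had medians of 168 CPM in epidermis, 59.4 in pith parenchyma, 29.5 in xylem sclerenchyma, 19.7 in phloem and 14.4 in vascular parenchyma. The vascular parenchyma genes then had 155 CPM in vascular parenchyma, 87.9 in phloem, 69 in xylem sclerenchyma, 16 in pith parenchyma and 3.98 in epidermis.

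**Figure D4:**
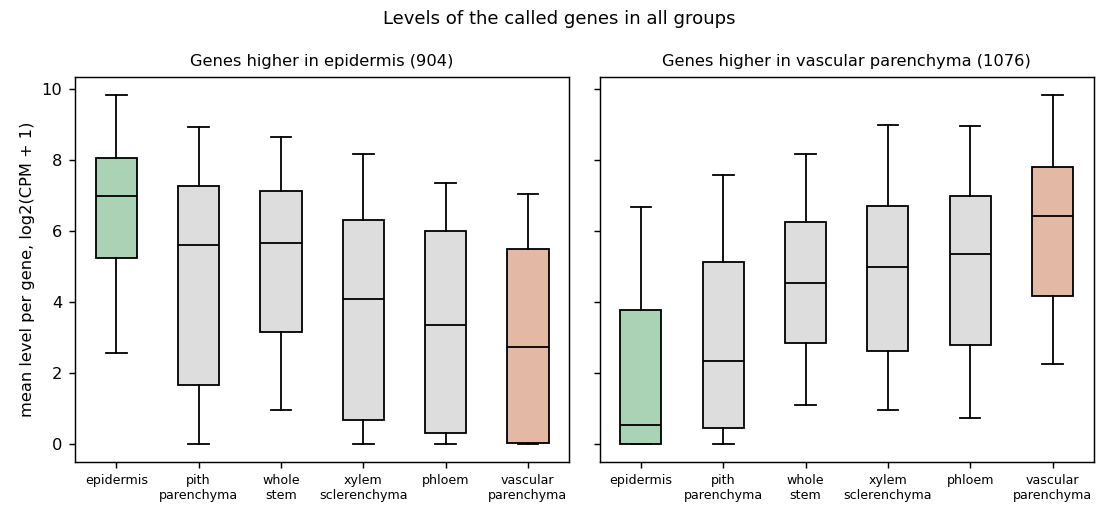
Mean level per gene over 4 libraries, as log2(CPM + 1), in the 6 groups, for the 904 genes called higher in epidermis (left) and the 1076 called higher in vascular parenchyma (right). Boxes span the quartiles with the median as a line, whiskers reach the 5th and 95th percentiles; the medians of phloem and xylem sclerenchyma lie nearer to vascular parenchyma than to epidermis in both panels.

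The called genes were also read in contrasts that share no library with the pair but come from the same fit. The estimated spread of a gene entered both tests, so the shares called are not independent of the calls in the pair. Among the 1076 genes higher in vascular parenchyma, 923 (85.8%) were higher in phloem than in pith parenchyma, compared with 49.3% of all genes tested. By edgeR's test 270 of them (25.1%) were called in that direction and 8 (0.743%) in the other, where the shares over all genes tested were 2.72% and 2.8%. Against xylem sclerenchyma, 955 (88.8%) were higher there than in pith parenchyma, with 179 (16.6%) called, compared with 50.6% and 1.9% of all genes. Among the 904 epidermis genes, 685 (75.8%) were higher in pith parenchyma than in phloem and 222 (24.6%) were called so, against 49.9% and 2.8% of all genes. For pith parenchyma over xylem sclerenchyma the numbers were 608 (67.3%) and 96 (10.6%), against 48.9% and 0.985%. This last direction turned in the calls of replicates 3 and 4 alone, where 46.6% of the epidermis genes were higher in pith parenchyma than in xylem sclerenchyma. With calls made without epidermis replicates 1 and 2, 88.7% and 90.7% of the vascular parenchyma genes were below phloem and xylem sclerenchyma level in pith parenchyma. The epidermis genes were higher in pith parenchyma at 72.8% and 62.2%.

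The contrast was then made within replicates 1 and 2 and within replicates 3 and 4, since epidermis differed between these sets. Within replicates 1 and 2, 148 genes were called higher in epidermis and 894 higher in vascular parenchyma. Within replicates 3 and 4 the numbers were 103 and 207. Both sets called 108 genes, 27 higher in epidermis and 81 higher in vascular parenchyma, with the same direction in each. Of the 894 genes, 735 (82.2%) were also higher in vascular parenchyma within replicates 3 and 4. In the reverse check, 206 of the 207 genes kept their direction within replicates 1 and 2. All 146 tested of the 148 epidermis genes kept theirs, as did 97 of 99 for the set of 103. Over all genes tested, the median log2 fold change was -0.669 within replicates 1 and 2 and 0.0561 within replicates 3 and 4. The share of all genes that kept their direction is not given here, so these counts cannot be set apart from that lean.

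Large fitted differences were repeated between the sets to unequal degrees. Over 18939 genes tested in both sets, 4764 had a log2 fold change of at least 5 toward vascular parenchyma within replicates 1 and 2. In replicates 3 and 4, 1050 of these (22%) passed the same size in the same direction, 1250 (26.2%) were within 1 of 0, and 498 (10.5%) differed by at least 5 toward epidermis. Of 1469 genes with such a difference toward vascular parenchyma within replicates 3 and 4, 1050 (71.5%) had it in replicates 1 and 2. Toward epidermis the order was the opposite. Of 828 genes that differed by at least 5 within replicates 1 and 2, 565 (68.2%) did so within replicates 3 and 4. Of 2113 within replicates 3 and 4, 565 (26.7%) did so within replicates 1 and 2 and 498 (23.6%) differed by at least 5 toward vascular parenchyma there. These sizes were chosen after the values were seen. Set against the same differences over all 18939 genes, the shares repeated in the same direction were higher. The shares that differed toward the other type, 10.5% and 23.6%, were slightly below those over all genes. The share of all genes within 1 of 0 is not given here. Of the 4764 genes, 3796 (79.7%) had no count in epidermis replicates 1 and 2, compared with 24.2% of the genes tested in both sets, and the part of these zeros in the result was not tested. Among the 1076 genes called over all replicates, 514 had no count in epidermis replicates 1 and 2 and 334 had none in the deeper replicates 3 and 4, where 25.5% and 6.36% of all genes tested had none.

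**Figure D5:**
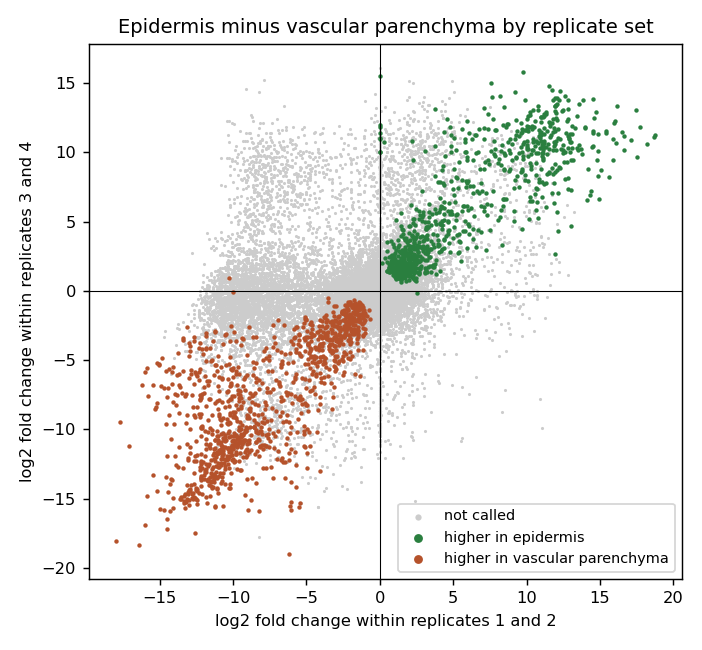
Log2 fold change of each gene, epidermis minus vascular parenchyma, within replicates 1 and 2 (horizontal) and within replicates 3 and 4 (vertical). Green and brown points are the genes called over all replicates; the grey cloud at the left holds the genes that differed by 5 or more toward vascular parenchyma in replicates 1 and 2 alone.

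Some called genes lay beside each other in the genome. Sobic identifiers carry the chromosome and a running number along it, so the neighbours of a gene could be read from the identifiers. Of the 1076 vascular parenchyma genes, 168 (15.6%) had an immediate neighbour called in the same direction, where 6.53% of all genes tested had such a neighbour. Of the 904 epidermis genes, 105 (11.6%) had a neighbour higher in epidermis, against 5.49% of all genes. Neighbours called in the opposite direction were found at 39 (3.62%) and 40 (4.42%) genes. The longest run was 4 genes on the vascular side and 3 on the epidermis side. Neighbouring genes can be close copies or overlap, how the counting divided reads between such genes is not stated, and these counts are a description without a test. The shares without epidermis replicates 1 and 2 were 11.8% of the vascular parenchyma genes and 9.97% of the epidermis genes, against 4.15% and 4.17% of all genes. Across the 10 chromosomes the share of tested genes that was called ran from 8.8% on chromosome 8 to 10.7% on chromosome 3.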

How the data were processed

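The authors deposited 1 table of estimated counts per gene for 24 libraries, without normalization. The submitters' processing notes name FastQC, Salmon and alevin; their versions, the index and the build were not given in the sources used here. Per the labels' protocols, cells were captured by laser from 20 µm cryosections, full-length cDNA was amplified with a SMART-Seq kit and sequencing gave single-end 150 bp reads. The labels name no molecular identifiers. Of the deposited values 10.5% were not whole, so the expected counts were rounded.

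Testing used R 4.3.3 with edgeR 4.0.16: filterByExpr, TMM, robust dispersions and quasi-likelihood F tests, fitted over the 20 laser capture libraries of 5 cell types, which share 1 estimate of the spread. The contrast was epidermis minus vascular parenchyma, with Benjamini-Hochberg adjustment over 19502 genes. Standard errors are the log2 fold change divided by the square root of F. CPM uses library totals. Levels between groups use log2(CPM + 1). Alternatives included DESeq2 1.42.0, limma 3.58.1, thinning to 2769545 counts and omission of libraries. The test was checked on simulated data. Printed genes were the first 2 per direction, by size of change, among called genes that were separated library by library and averaged 10 CPM or more on the higher side. Members, rules and lists were chosen with earlier results of these data known. Gene lists by product name could not be built, since no identifier was paired with a product.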

Additional observations from a re-analysis of the deposited data

Results flagged for a closer look

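In 5 of 42 groups of 4 values examined, 1 library lay far from the other 3. Chance flags about 1 in 20 groups of continuous values. That rate does not hold here, since a group with counts in 1 library alone is always flagged. In all 5 the other 3 libraries had no count, and the flagged value rested on 1 to 35 counts. Values are on the log2(CPM + 1) scale. For Sobic.002G341700 the flagged libraries were vascular parenchyma replicate 4 at 0.2, pith parenchyma replicate 1 at 0.111 and xylem sclerenchyma replicate 4 at 0.96. Sobic.002G093600 reached 0.0515 in xylem sclerenchyma replicate 4. Sobic.002G322900 reached 1.93 in pith parenchyma replicate 1.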

How the results depend on the processing

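The number of genes called stayed within 1.5 times of 1980 in 16 of 21 alternatives. Called genes kept their direction in every alternative that tested them, with few exceptions. These were 8 genes at or across 0 within replicates 1 and 2 and 2 genes within replicates 3 and 4. Such agreement follows in large part from using the same libraries. The share of the 1980 genes still called ran from 12.9% within replicates 3 and 4 to 98.3% by DESeq2. It was 22.6% within replicates 1 and 2 and 55.1% without epidermis replicates 1 and 2. DESeq2 called 3789 genes, 1594 higher in epidermis and 2195 higher in vascular parenchyma, and limma voom with quality weights called 3710, 1912 and 1798. Replicates 1 and 2 alone gave 1042, of which 148 were higher in epidermis. Replicates 3 and 4 alone gave 310, as 103 and 207. These sets hold 2 libraries per type. Without epidermis replicates 1 and 2, 654 genes were higher in vascular parenchyma. Omission of single libraries gave 1331 to 1735 calls, with 561 to 845 higher in epidermis and 765 to 1012 higher in vascular parenchyma. The lowest epidermis numbers were 561 without epidermis replicate 3 and 599, 599 and 570 without vascular parenchyma replicates 1, 3 and 4. In the calls of replicates 3 and 4 alone, 46.6% of the epidermis genes were higher in pith parenchyma than in xylem sclerenchyma, against 67.3% over all replicates. The cause of these changes was not tested.

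The labels do not say whether same-numbered libraries of different cell types came from the same plant. Same-numbered epidermis and vascular parenchyma libraries did not deviate together, with correlations across genes of 0.015, -0.0452, 0.0545 and -0.0413 for numbers 1 to 4. These correlations cannot settle whether the libraries are paired. With a replicate block over the 20 libraries 1756 genes were called. A block in a fit of the 8 libraries alone, added after seeing the data, left 526, as 229 and 297; the same fit with no block called 1445. The best match by correlation was the library of the same number for epidermis replicate 3 alone. Lists by product name have no values. A gene with no count in all 4 libraries of a group could still lie below the floors of 0.19 and 0.167 CPM.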
